A study of Mus musculus with 3 samples.

Results

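The interferon-inducible GTPases described here are 10 genes, the guanylate-binding proteins Gbp2, Gbp3, Gbp4, Gbp5, Gbp6, Gbp7, Gbp8 and Gbp9 and the immunity-related GTPases Igtp and Irgm1, of 32285 genes in the files. They were followed across 5 classes of islet-infiltrating leukocytes. Cells with at least 1000 unique molecular identifiers (UMIs, each counting 1 captured transcript) and under 10% mitochondrial UMIs were kept, and the classes were set from raw UMIs of lineage genes, none of which is a GTPase gene. CD8 T cells had Cd3e of at least 1, Cd8a plus Cd8b1 of at least 2 and no Cd4. CD4 T cells had Cd3e and Cd4 of at least 1 and no Cd8a, Cd8b1 or Foxp3. Regulatory T cells (Treg) had Cd3e and Foxp3 of at least 1. B cells had Cd79a of at least 2 and no Cd3e. Macrophages had C1qa plus C1qb of at least 5, no Cd3e and at most 1 Cd79a UMI. Of 26947 cells, 26142 were kept. The rules found 68 macrophages, 4936 B cells, 3258 CD8 T cells, 5858 CD4 T cells and 1671 Treg, while 10410 kept cells met no rule. The 59 cells that met both the CD8 T and the Treg rule were left out, so that 3199 CD8 T cells and 1612 Treg entered the sums.

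Interferon-gamma binds a receptor built from Ifngr1 and Ifngr2, which acts through the Janus kinases to switch on transcription from gamma-activated sites. Irf1, itself induced, binds interferon-stimulated response elements, to which complexes holding Irf9 downstream of type I interferon also bind. The GTPases are among the most strongly induced targets in mouse cells. Guanylate-binding proteins assemble on the membranes of vacuoles and bacteria and take part in inflammasome activation, and the immunity-related GTPases include effectors and, as Igtp and Irgm1, regulators that reside on the cell's own membranes. In the islets of NOD mice, a strain that develops autoimmune diabetes, T cells are a source of interferon-gamma.

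Viable leukocytes, sorted as CD45+ from the dispersed islets of female wild-type NOD mice, were profiled by droplet single-cell sequencing of transcript 3′ ends. There were 3 libraries of 1 condition, each from 2 to 3 pooled mice, 15 to 16 weeks old according to the methods (a figure legend gives a lower minimum), and no treated or control group. The sort used viability and CD45, so that the classes rest on RNA only. The libraries came from 2 independent experiments, but which library belongs to which is not stated, so that experiment and library cannot be told apart. Replicates 1, 2 and 3 held 5844, 9537 and 11566 cells with a median of 4230, 6415 and 5521 UMIs. They shared 12 to 29 cell barcodes pairwise, at most 0.308% of the smaller library. Markers of these lineages that the rules did not use went with the names given. The 6 macrophage markers summed to 11660 to 15525 CPM (a gene's share of all UMIs of the class, scaled to counts per 1e6 UMIs) in macrophages and 16.7 to 210.1 in the other classes. The 4 B-cell markers summed to 1173 to 1357 CPM in B cells and 4.12 to 309 elsewhere, the 4 T-cell markers to 2056 to 3500 in T-cell classes and 5.29 to 210.5 elsewhere, and the 4 Treg markers to 1930 to 2362 in Treg and 480.2 to 985.3 in the other T-cell classes. The 3 plasma-cell markers summed to 2904, 549 and 1782 CPM in B cells of replicates 1, 2 and 3 and 107 to 793 elsewhere. The B-cell class may therefore hold plasma cells, and their part in its GTPase values was not tested. Endocrine genes, led by insulin, reached 1372 CPM in the macrophages of replicate 3 and at most 143 in the other class sums. Only 31, 10 and 27 macrophages were found in replicates 1, 2 and 3, so that single macrophage values rest on as few as 2 UMIs.

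The 10 genes lie in 3 places of the mouse genome (GRCm38, gene spans from GENCODE M21). Gbp5, Gbp7, Gbp3 and Gbp2 follow one another on the plus strand of chromosome 3 between positions 142493978 and 142638008. Gbp8, Gbp9, Gbp4 and Gbp6 lie on the minus strand of chromosome 5 between 105014150 and 105293698. The annotated spans of Gbp8, Gbp9 and Gbp4 overlap on that strand, so that reads of these 3 genes may be divided between them and their single values are less certain. Gbp6 has a close copy, Gbp10, which makes its value less certain as well. Igtp (58199556 to 58207591, plus strand) and Irgm1 (48861968 to 48871683, minus strand) lie on chromosome 11.

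A binding motif of the pathway stood close to the start of each member that could be searched. Promoter windows of 250 bases before to 50 bases after the start (RefSeq, GRCm38.p6) were at hand for 6 of the 10 genes, Gbp2, Gbp3, Gbp5, Gbp7, Igtp and Irgm1. Both strands were searched for the gamma-activated site TTCNNNGAA, which reads the same on both strands, and for the core of the interferon-stimulated response element, read as GAAA, 2 bases of any kind and GAAA again, or as its reverse complement. All 6 genes had the response element core, against 3.44% of all 32851 promoter windows, and 3 of 6 (Gbp5, Gbp7 and Igtp) had a gamma-activated site, against 8.30%. Neither motif was found in the window of a second Gbp3 start, so that members are counted by gene and all promoters by window. The members are known interferon targets, so that these shares carry no result about the islet cells. In Gbp3 and Irgm1 a pair of response element cores overlapped. The stretches that hold the matches are given 5′ to 3′ with the matches in capitals, because they show where the motifs lie in the 6 genes that could be searched. A further gamma-activated site of Gbp5 began 245 bases before the start and is not shown. The Gbp2 stretch reaches into the first exon of GENCODE, the Gbp5 stretch lies in an intron of a longer GENCODE transcript and the Irgm1 stretch in the first exon of a GENCODE transcript without a coding region.
Gbp2 (chr3:142620598-142620619, plus strand, 65 to 44 bases before the start): ttttagTTTCACTTTCactgtc
Gbp3 (chr3:142559993-142560020, plus strand, 51 to 24 bases before the start): acacagTTTCAGTTTCTATTTCccagat
Gbp5 (chr3:142496763-142496896, plus strand, 171 to 38 bases before the start): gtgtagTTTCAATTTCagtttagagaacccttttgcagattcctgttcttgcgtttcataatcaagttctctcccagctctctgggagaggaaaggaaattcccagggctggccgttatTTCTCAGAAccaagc
Gbp7 (chr3:142530224-142530298, plus strand, 112 to 38 bases before the start): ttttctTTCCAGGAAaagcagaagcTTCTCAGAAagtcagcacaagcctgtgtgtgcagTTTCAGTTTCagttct
Igtp (chr11:58199505-58199537, plus strand, 51 to 19 bases before the start): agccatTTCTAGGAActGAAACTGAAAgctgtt
Irgm1 (chr11:48871429-48871456, minus strand, 36 to 9 bases before the start): tttcaaGAAATAGAAACCGAAActgatt

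Levels of the GTPases differed between the libraries, which bears on every comparison of classes. In the lymphocyte classes replicate 1 lay far below replicates 2 and 3, which lay close together. Summed over the 10 genes, B cells held 166, 493 and 457 CPM in replicates 1, 2 and 3, CD8 T cells 348, 1045 and 1022, CD4 T cells 433, 983 and 993, and Treg 566, 1384 and 1294. Macrophages held 983, 1506 and 1261 CPM. Irgm1, a regulator of mitochondrial and lysosomal membranes, showed the gap most plainly, with 20.8, 143 and 134 CPM in B cells and 19.6, 129 and 107 in Treg. Its mean in replicates 2 and 3 was 6.65-fold the level of replicate 1 in B cells, 4.71-fold in CD8 T cells, 5.67-fold in CD4 T cells and 6.04-fold in Treg, but 1.88-fold in macrophages. Gbp8 did not show it, with 16.4, 18.5 and 16.3 CPM in Treg and 3.69, 2.84 and 3.37 in B cells.

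Of the 10 genes, 10 were lowest in replicate 1 in CD8 T cells, 9 each in B cells, CD4 T cells and Treg, and 5 in macrophages. Among all 12099 genes tested, 34.9% were lowest in replicate 1 in CD8 T cells, 35.0% in B cells, 36.2% in CD4 T cells, 44.0% in Treg and 24.6% in macrophages. The median difference of replicate 1 from the mean of replicates 2 and 3 on the log2(CPM + 1) scale was -1.34 in CD8 T cells, -1.08 in B cells, -1.08 in CD4 T cells, -1.03 in Treg and -0.62 in macrophages for the members, and between -0.02 and 0.09 for all genes. Other interferon targets were low in replicate 1 as well. The median over 12 type I interferon response genes was -1.86 in CD8 T cells, -1.83 in B cells, -1.09 in CD4 T cells and -1.90 in Treg, and that over 6 further interferon-inducible GTPases was -2.17, -1.45, -1.19 and -1.31. Over 14 genes of interferon-gamma signalling it was -0.67, -0.45, -0.52 and -0.48. Over the 14 tested genes of antigen presentation and chemokines it was 0.03 in CD8 T cells, -0.14 in B cells, 0.21 in CD4 T cells and -0.21 in Treg, but -0.49 in macrophages, where the type I interferon response genes were at -0.39, the further GTPases at -0.73 and the signalling genes at -0.10. Ifng itself went the other way, with 42.3, 17.7 and 16.3 CPM in the CD8 T cells and 54.0, 28.5 and 24.6 in the CD4 T cells of replicates 1, 2 and 3. These values are a description of single libraries, and whether mice, experiment or handling differed was not tested.

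**Figure D1:**
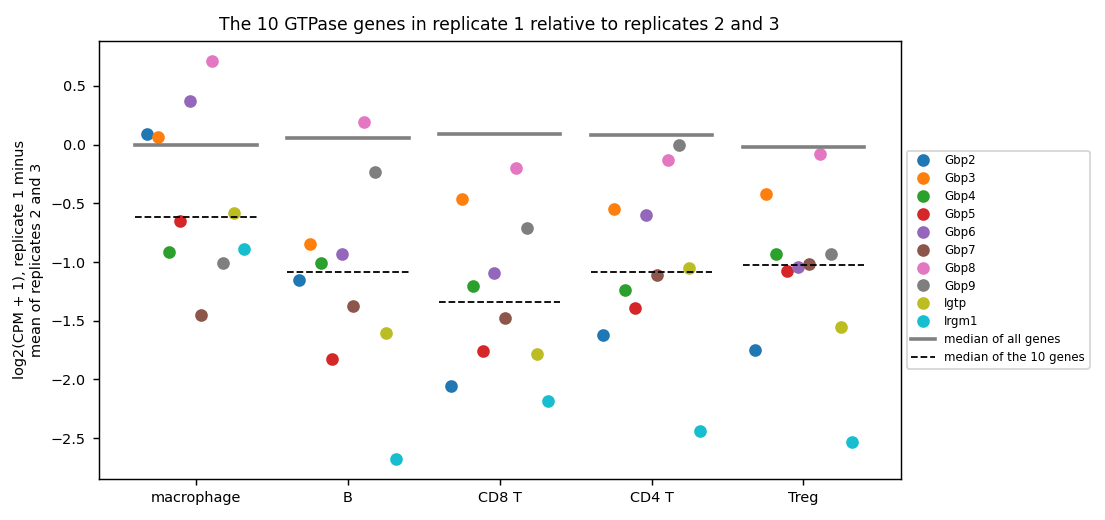
Each point is 1 of the 10 GTPase genes in 1 class, placed by its level in replicate 1 minus the mean of replicates 2 and 3 on the log2(CPM + 1) scale; dashed lines are medians of the 10 genes and grey lines medians of all 12099 genes tested. The members' medians lie between -1.34 and -0.62, while those of all genes lie between -0.02 and 0.09.

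Between the classes, 8 of the 10 GTPases had their lowest mean in B cells, with Irgm1 and Gbp9 as the exceptions, and the order among the other classes depended on the gene. Comparisons used UMIs summed per library and class (15 sums) in 1 edgeR quasi-likelihood fit with the library as a block, and a gene was called at a Benjamini-Hochberg adjusted p under 0.05 over all 12099 genes tested, which include all 10 members. CPM means are given with their SD over 3 libraries. Library is the only replicate. The SD includes the low values of replicate 1. In the test, the block takes out a shift that all classes of a library share.

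**Figure D2:**
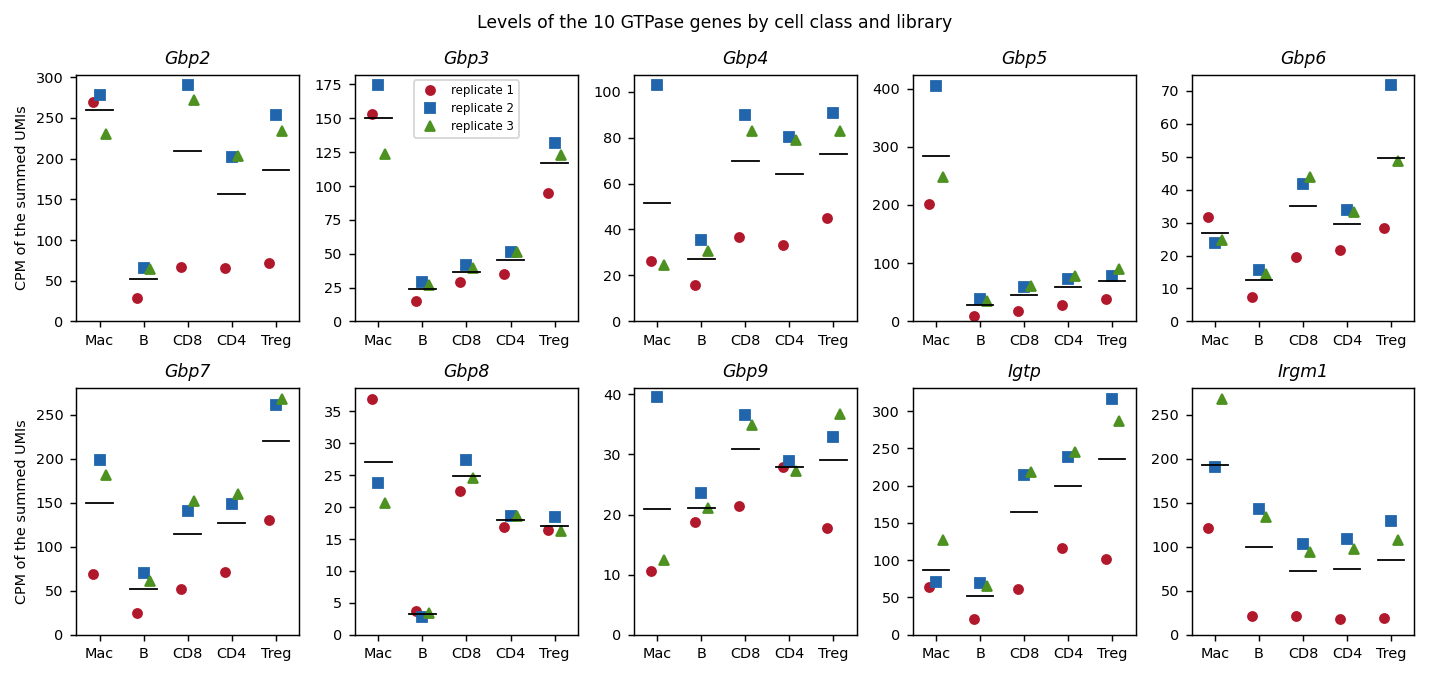
Each panel shows 1 gene, with CPM of the summed UMIs on the vertical axis (starting at 0) and the 5 classes on the horizontal axis; points are the 3 libraries and bars their mean. In the lymphocyte classes the red points of replicate 1 lie below those of replicates 2 and 3 for most genes, Gbp5 stands highest in macrophages and Gbp8 is near 0 in B cells.

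B cells held less of most GTPases than any T-cell class. Against CD8 T cells, 9 of 10 members were lower and none was called higher (26.5% of all genes were called lower and 22.3% higher). Against CD4 T cells 8 were lower and 1 higher (27.2% and 24.4% of all genes), and against Treg 8 were lower and none was called higher (25.9% and 22.5%). The medians of the members were -1.22, -1.12 and -1.65 on the log2 scale, beside -0.04, -0.02 and -0.02 for all genes. Gbp8 differed most from CD8 T cells, with 3.30 ± 0.43 CPM in B cells against 24.8 ± 2.5 in CD8 T cells (log2 fold change -2.91 ± 0.15 SE, adjusted p = 3.08e-10), and B cells and T cells did not overlap in any library. Igtp, a regulator on the endoplasmic reticulum, had 21.5, 69.3 and 65.2 CPM in B cells against 102, 316 and 287 in Treg (log2 fold change -1.98 ± 0.16 SE, adjusted p = 7.59e-08). The highest B-cell value of Igtp lay below the lowest Treg value. Irgm1 departed from the other members, with 99.4 ± 68.2 CPM in B cells and 74.6 ± 49.2 in CD4 T cells, and was called higher in B cells against CD4 T cells (0.49 ± 0.17 SE, adjusted p = 0.0244). Its differences from CD8 T cells (0.39, adjusted p = 0.0752) and Treg (0.39, adjusted p = 0.0805) did not pass. Of the T-cell classes, Gbp9 was called against CD8 T cells only (-0.54 ± 0.15 SE, adjusted p = 0.00807). Scaling by total UMIs in place of TMM moved the median of all genes to -0.14 against CD4 T cells and -0.23 against Treg and the share of calls that were higher from 47.2% to 36.3% and from 46.5% to 28.2%, with 9 of 10 members below 0 under either scaling. Without the library block 5 members passed against CD8 T cells and 4 against CD4 T cells. Calls over all genes then fell from 5896 to 3832 and from 6245 to 4089. Irgm1 against CD4 T cells did not pass without replicate 2 (0.48, adjusted p = 0.106) or replicate 3 (0.45, adjusted p = 0.219), nor did Gbp9 against CD8 T cells (-0.45, adjusted p = 0.130, and -0.43, adjusted p = 0.124).

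The pathway's own genes differed between B cells and CD4 T cells in both directions. Against CD4 T cells, B cells had less Ifng (1.70, 1.49 and 0.613 against 54.0, 28.5 and 24.6 CPM), the cytokine, and less Ifngr1 (130 ± 18 against 667 ± 174 CPM), the ligand-binding receptor chain, but more Ifngr2 (109 ± 22 against 64.3 ± 16.1 CPM), the signalling chain. Irf1, the induced transcription factor, did not pass (0.04 ± 0.14 SE, adjusted p = 0.829). Of 14 genes of interferon-gamma signalling 9 were lower and 2 higher. Of 6 tested further GTPases 5 were lower and none was called higher, led by Gbp2b (-3.35 ± 0.44 SE), Iigp1 (-2.60 ± 0.24 SE) and Tgtp1 (-1.54 ± 0.18 SE). Of 14 tested genes of antigen presentation and chemokines, 6 were lower and 1 higher. The higher gene was Ciita (2.69 ± 0.20 SE), the master regulator of class II genes, which B cells use constitutively. Over all genes, 27.2% were called lower and 24.4% higher in this comparison.

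Macrophages stood out by Gbp5 and less plainly by Irgm1, and held less Igtp than T cells. Gbp5, which promotes assembly of the NLRP3 inflammasome, had 201, 404 and 247 CPM in macrophages against 39.2, 77.9 and 89.9 in Treg, 28.2, 72.9 and 78.6 in CD4 T cells, 17.2, 59.7 and 61.4 in CD8 T cells and 9.76, 38.9 and 35.4 in B cells. The lowest macrophage value lay above every lymphocyte value. Its log2 fold change was 3.24 ± 0.27 (SE) against B cells, 2.51 ± 0.26 against CD8 T cells, 2.22 ± 0.25 against CD4 T cells and 2.10 ± 0.26 against Treg, with a largest adjusted p of 1.12e-05. Irgm1 had 122, 190 and 268 CPM in macrophages and was higher there than in each lymphocyte class, by 1.01 ± 0.26 (SE) against B cells and 1.40 ± 0.27 against both CD8 T cells and Treg, and it passed against CD4 T cells too (adjusted p = 3.29e-04). Its macrophage value in replicate 1 lay below the B-cell values of replicates 2 and 3. In cells reduced to 2000 UMIs each, Irgm1 was found in 12.9%, 11.1% and 33.3% of macrophages and 4.39%, 23.3% and 20.5% of B cells. Replicate 2 had 9 such macrophages. Gbp3 was higher than in B cells (2.54 ± 0.22 SE), CD8 T cells (1.90 ± 0.21) and CD4 T cells (1.70 ± 0.21), but not called against Treg by edgeR (0.43 ± 0.19, adjusted p = 0.0978), while DESeq2 called it (0.56, adjusted p = 0.0140). Igtp went the other way, with 63.4, 71.3 and 128 CPM in macrophages, and was lower than in CD8 T cells (-0.88 ± 0.25 SE, adjusted p = 0.0113), CD4 T cells (-1.16 ± 0.25, adjusted p = 0.00158) and Treg (-1.23 ± 0.25, adjusted p = 0.00106). Igtp did not pass against CD8 T cells without replicate 2 (-0.57, adjusted p = 0.127) or replicate 3 (-0.94, adjusted p = 0.104), and Irgm1 did not pass against B cells without replicate 3 (1.13, adjusted p = 0.0761).

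In counts, 7 of 10 members were higher and none was called lower in macrophages against B cells (15.4% and 20.6% of all genes). Against CD8 T cells 3 were higher and 1 lower (15.3% and 21.7%), against CD4 T cells 4 and 1 (15.0% and 20.8%), and against Treg 2 and 2 (14.0% and 19.8%). The medians of the members were 1.20, 0.15, 0.39 and -0.05, beside -0.56, -0.55, -0.53 and -0.52 for all genes. DESeq2 put the median of all genes between -0.23 and -0.17 in these 4 comparisons, and the share of calls that were higher at 54.3% to 59.2% in place of 41.3% to 42.8%, and it left 1, 4, 4 and 5 members below 0, as in edgeR. Of 12 type I interferon response genes, 12 were higher in macrophages against B cells and 10 against CD8 T cells, with Rsad2, the antiviral protein viperin, at 6.89 ± 0.62 (SE) against CD8 T cells. Of 14 tested genes of antigen presentation and chemokines, 12 and 11 were higher, and of 6 further GTPases 3 and 2. Against CD4 T cells and Treg, 11 and 10 of the type I interferon response genes were higher. So were 11 and 10 of the antigen presentation and chemokine genes, but none of the 6 further GTPases was called. Of 14 genes of interferon-gamma signalling, 5 were higher and 2 lower against B cells and 4 and 5 against CD8 T cells. Against CD4 T cells and against Treg they were 4 and 6. Ifng had no UMI in macrophages of any library. Of the genes of the pathway, Ifngr2 (2.06 ± 0.19 SE) and Irf1 (2.03 ± 0.17) were higher and Ifngr1 (-2.84 ± 0.33) lower in macrophages than in CD8 T cells. Without the library block 4, 2, 2 and 1 members passed against B cells, CD8 T cells, CD4 T cells and Treg. Thinning every cell to 1000 UMIs left 2 against B cells, where Igtp then lay below 0 (-0.51, adjusted p = 0.65), and 3 against CD4 T cells. It moved the calls over all genes from 4359 to 1715 and from 4333 to 1733.

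Gbp4, Gbp6 and Gbp9, all from the chromosome 5 cluster, were not called between macrophages and another class by edgeR, while DESeq2 called Gbp6 against B cells (1.19, adjusted p = 0.0152). Gbp4 had 26.4, 103 and 24.7 CPM in macrophages, which rested on 5, 13 and 6 UMIs, and 45.1, 90.6 and 83.0 in Treg. Gbp6 had 31.7, 23.8 and 24.7 CPM in macrophages and 7.39, 15.6 and 14.4 in B cells (1.02 ± 0.45 SE, adjusted p = 0.0944). Gbp9 showed the least order of the 10, with mean levels from 20.9 CPM in macrophages and 21.1 in B cells to 30.9 in CD8 T cells, and no pair of neighbours in that order differed by the edgeR test. For Gbp2 the order was macrophages (259 ± 25 CPM), CD8 T cells (209), Treg (186), CD4 T cells (157) and B cells (52.7), and the step from CD4 T cells to B cells was the one between neighbours that passed (adjusted p = 2.79e-04). Macrophages lay above CD8 T cells in 1 of 3 libraries, replicate 1, and without it the difference was -0.31 (adjusted p = 0.107). Gbp2 was called against CD4 T cells (0.88 ± 0.32 SE, adjusted p = 0.0466), but not without replicate 1 (0.26, adjusted p = 0.241) or replicate 2 (1.09, adjusted p = 0.0653). For Gbp4, Gbp5, Gbp6, Igtp and Irgm1 too, edgeR called no step between neighbouring T-cell classes. Gbp6 did pass between Treg and CD4 T cells, the ends of its order among the T cells.

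Among the T cells, Treg held more Gbp3, Gbp7 and Gbp6 than CD4 T cells, and edgeR called no other member between these classes. Gbp3 had 95.2, 132 and 123 CPM in Treg against 34.7, 51.1 and 51.0 in CD4 T cells and 29.2, 41.6 and 39.7 in CD8 T cells. The lowest Treg value, from replicate 1, lay above every value of the other T cells. The log2 fold change of CD4 T cells against Treg was -1.27 ± 0.11 (SE, adjusted p = 7.80e-06) and that of CD8 T cells against Treg -1.47 ± 0.12 (adjusted p = 5.86e-07). Gbp7, which helps to assemble the phagocyte oxidase, had 131, 261 and 268 CPM in Treg against 71.0, 149 and 160 in CD4 T cells and 51.9, 140 and 152 in CD8 T cells, lower by -0.73 ± 0.12 (SE, adjusted p = 0.00133) in CD4 T cells and -0.80 ± 0.12 (adjusted p = 1.72e-04) in CD8 T cells. Gbp7 was higher in Treg within each library, though replicate 1 of Treg lay below replicates 2 and 3 of the other T cells. Gbp6 was called against CD4 T cells (-0.63 ± 0.14 SE, adjusted p = 0.012), with 28.2, 71.7 and 48.6 CPM in Treg against 21.8, 33.9 and 33.3.

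Against Treg, 3 members were lower in CD4 T cells and none was called higher (3.48% and 2.29% of all genes). In CD8 T cells 2 were lower and 1 higher (9.86% and 6.81%). The gene that was higher was Gbp8, with 22.5, 27.4 and 24.5 CPM in CD8 T cells, 16.9, 18.6 and 18.6 in CD4 T cells and 16.4, 18.5 and 16.3 in Treg. The CD8 T values of Gbp8 lay above all values of the other T cells, and it was called against both Treg (0.74 ± 0.13 SE, adjusted p = 8.57e-04) and CD4 T cells (0.57 ± 0.12, adjusted p = 0.00432). It was the 1 member of 10 called between CD8 and CD4 T cells, where 4.55% of all genes were called higher and 6.61% lower in CD8 T cells. Ifngr1 and Irf1 did not pass between CD4 T cells and Treg (-0.43 and -0.31), whereas Ifng was higher in CD4 T cells (1.46 ± 0.17 SE, adjusted p = 1.66e-04) and Ifngr2 too (0.43 ± 0.12, adjusted p = 0.0487). No gene of the 6 tested further GTPases was called there.

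These contrasts moved with the scaling and with single libraries. With total UMIs, the median of all genes in CD8 T cells against Treg moved from 0.02 to -0.18, the share of calls that were higher from 40.9% to 16.3%, and the members called from 3 to 6. The share of higher calls moved from 40.7% to 24.9% between CD8 and CD4 T cells and from 39.7% to 25.6% between CD4 T cells and Treg. The members called between CD8 and CD4 T cells were 4 without replicate 1 and 0 without replicate 2 or replicate 3, where Gbp8 was at 0.50 (adjusted p = 0.182) and 0.62 (adjusted p = 0.0988). Against Treg, Gbp8 was at 0.71 without either (adjusted p = 0.0574 and 0.0577). Those called in CD4 T cells against Treg were 3 without replicate 1 and 2 without either other replicate, where Gbp6 was lost (-0.39, adjusted p = 0.565, and -0.74, adjusted p = 0.106), and without the library block 1 was called there and 0 between CD8 and CD4 T cells. Calls over all genes moved from 1350 to 1646, 551 and 445 between CD8 and CD4 T cells without replicates 1, 2 and 3. Between CD4 T cells and Treg they moved from 698 to 1131, 124 and 152. Without the library block 425 genes were called between CD8 and CD4 T cells and 105 between CD4 T cells and Treg. B-cell markers summed to 137, 309 and 178 CPM in Treg against 125, 185 and 93.9 in CD4 T cells. A stricter setting left out T cells with over 1 UMI of Cd79a or of C1qa plus C1qb. It also left out B cells with over 1 UMI of C1qa plus C1qb. It kept 51 of the 53 called member values between classes, but T cells with 1 Cd79a UMI stayed in. The part of B-cell RNA in the Treg values was not tested further.

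Most T cells and macrophages, and fewer B cells, held a transcript of at least 1 of the GTPases. The median UMIs per cell of a class ran from 4309 in B cells of replicate 1 to 12864 in macrophages of replicate 2. To compare shares at equal depth, cells with at least 2000 UMIs were thinned to 2000 UMIs. A UMI of any of the 10 genes was then found in 75.9 ± 7.5% of Treg, 69.7 ± 7.1% of macrophages, 62.9 ± 9.4% of CD4 T cells, 59.8 ± 11.5% of CD8 T cells and 38.8 ± 13.8% of B cells (mean ± SD of 3 libraries). Before thinning these shares were 93.9%, 90.9%, 84.9%, 85.4% and 63.7%. Treg exceeded the other lymphocytes in each library, with 67.5%, 81.8% and 78.5% in replicates 1, 2 and 3, and B cells were lowest in each, with 23.4%, 49.9% and 43.0%. CD4 T cells had 52.0%, 68.8% and 67.7% against 46.5%, 66.9% and 66.1% in CD8 T cells. At this depth CD4 T cells were thus higher in each library, while the means differed by less than their SD. Before thinning CD8 T cells were higher in each, with 75.3%, 92.0% and 89.1% against 74.6%, 91.1% and 89.0%. At 1000 UMIs CD8 T cells were higher in replicate 2 (52.9% against 49.6%) and lower in replicates 1 and 3. At least 2 of the genes were found in 46.6 ± 12.1% of Treg, 43.4 ± 2.4% of macrophages, 32.6 ± 10.4% of CD4 T cells, 32.4 ± 11.8% of CD8 T cells and 14.7 ± 8.2% of B cells. With 3 paired libraries an exact two-sided test cannot go below p = 0.25, so no test was made on shares.

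The differences of Gbp3 between Treg and CD4 T cells and of Gbp8 between B cells and CD8 T cells appeared in shares of cells too. Gbp3 was found in 20.8%, 23.4% and 24.1% of thinned Treg but in 6.74%, 9.66% and 9.60% of thinned CD4 T cells, and Gbp8 in 0.556%, 0.449% and 0.376% of thinned B cells against 6.82%, 5.55% and 4.60% of CD8 T cells. RNA of other cells, either released or from droplets that held several cells, was gauged by genes that a class should lack. The B-cell rule excluded Cd3e, while the T-cell rules set no limit on Cd79a, so that the shares are not like measures. Trac, of the T-cell receptor, was found in 1.39% to 2.11% of thinned B cells against 43.8% to 60.2% of T cells, Ms4a1, of B cells, in 1.81% to 10% of thinned T cells against 54.4% to 64.6% of B cells, and C1qc in at most 0.35% of lymphocytes. How much of the Gbp8 share in B cells came from RNA of other cells was not tested. The tenth of T cells with the most GTPase UMIs, before thinning, held 32.3% to 42.2% of them per class and library, and that of B cells 42.5% to 56.3%.

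**Figure D3:**
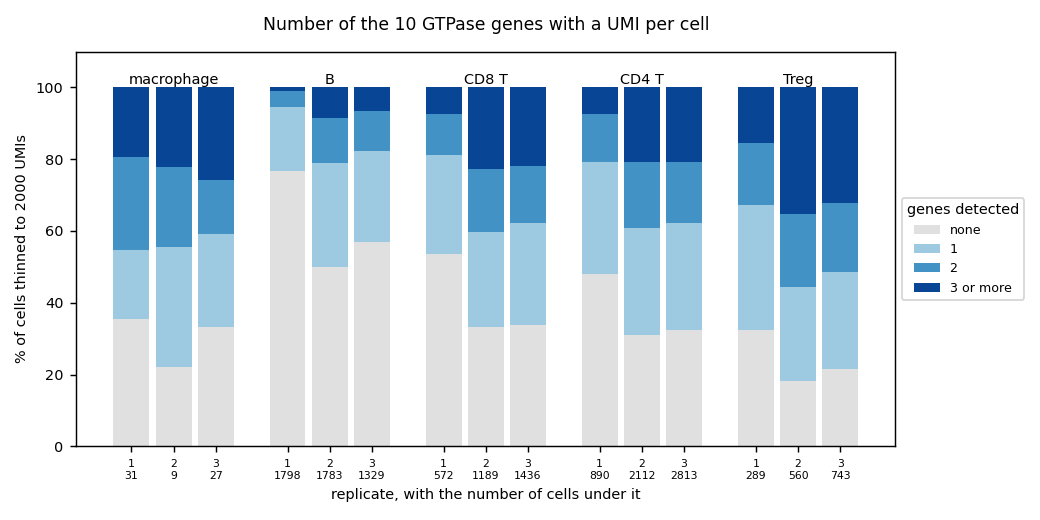
Stacked bars show, for each class and library, the share of cells thinned to 2000 UMIs in which none, 1, 2 or at least 3 of the 10 GTPase genes had a UMI. Cells with none make up 76.6% of B cells in replicate 1 and 18.2% of Treg in replicate 2, and replicate 1 has more cells with none than replicates 2 and 3 in every lymphocyte class.

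Within the T cells, those with a Pdcd1 UMI held less of the GTPases, as a share of their UMIs, than those without. Pdcd1 encodes PD1, the checkpoint receptor that T cells raise after antigen contact, and it was read only to split each class. In CD8 T cells 247, 352 and 467 cells of replicates 1, 2 and 3 had a Pdcd1 UMI and 327, 837 and 969 had none. In CD4 T cells the numbers were 299, 738 and 966 against 616, 1378 and 1861, and in Treg 117, 342 and 429 against 188, 219 and 317. The 18 sums were fitted together with the library as a block, and all 10 members were among the 10768 genes tested. All 10 members had a log2 fold change below 0 in each of the 3 classes. In CD8 T cells 8 were called lower (7.43% of all genes), in CD4 T cells 10 (8.02%) and in Treg 3 (0.409%), and none was called higher in any class (6.23%, 7.55% and 0.102%). The members' medians were -0.77, -0.74 and -0.59, beside -0.01, -0.01 and 0.00 for all genes.

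Gbp2, whose product coats pathogen vacuoles, was at 39.8, 151 and 118 CPM in CD8 T cells with Pdcd1 against 92.5, 358 and 360 in those without. In each library the cells with Pdcd1 were lower, and the log2 fold change was -1.55 ± 0.18 (SE, adjusted p = 2.06e-05). In CD4 T cells Gbp2 was at 58.2, 96.4 and 110.1 against 68.9, 271 and 268 CPM (-1.27 ± 0.18 SE, adjusted p = 1.06e-04), so that replicate 1 showed a small part of the difference of the other libraries. In Treg it was at 44.8, 227 and 184 against 97.0, 313 and 328 CPM, and the difference of -0.78 ± 0.19 (SE) did not pass (adjusted p = 0.0769). Gbp4 passed in all 3 classes, with -1.05 ± 0.12 (SE) in CD8 T cells, -1.21 ± 0.11 in CD4 T cells and -0.68 ± 0.12 in Treg. It was at 28.1, 61.7 and 48.4 CPM in CD8 T cells with Pdcd1 against 45.1, 104 and 102 without. The cells with Pdcd1 lay lower in every library, though replicate 1 without Pdcd1 lay below replicates 2 and 3 with it. Gbp5 passed in all 3 as well (-1.19 ± 0.13, -0.85 ± 0.12 and -0.66 ± 0.13), with 11.7, 37.6 and 35.5 CPM against 22.6, 70.6 and 76.3 in CD8 T cells. So did Irgm1 (-0.49 ± 0.09, -0.68 ± 0.08 and -0.57 ± 0.09), with 14.4, 87.6 and 77.8 CPM against 20.2, 122 and 111 in CD4 T cells. Gbp7 and Igtp passed in CD8 and CD4 T cells and not in Treg, where their differences were -0.50 ± 0.12 (adjusted p = 0.0918) and -0.57 ± 0.17 (adjusted p = 0.193). Gbp8 and Gbp9 passed in the same 2 classes, with -0.67 ± 0.19 and -0.54 ± 0.16 in CD8 T cells and -0.79 ± 0.18 and -0.65 ± 0.15 in CD4 T cells. Gbp3 (-0.34 ± 0.12 SE, adjusted p = 0.0667) and Gbp6 (-0.71 ± 0.25, adjusted p = 0.0629) were the members that did not pass in CD8 T cells.

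**Figure D4:**
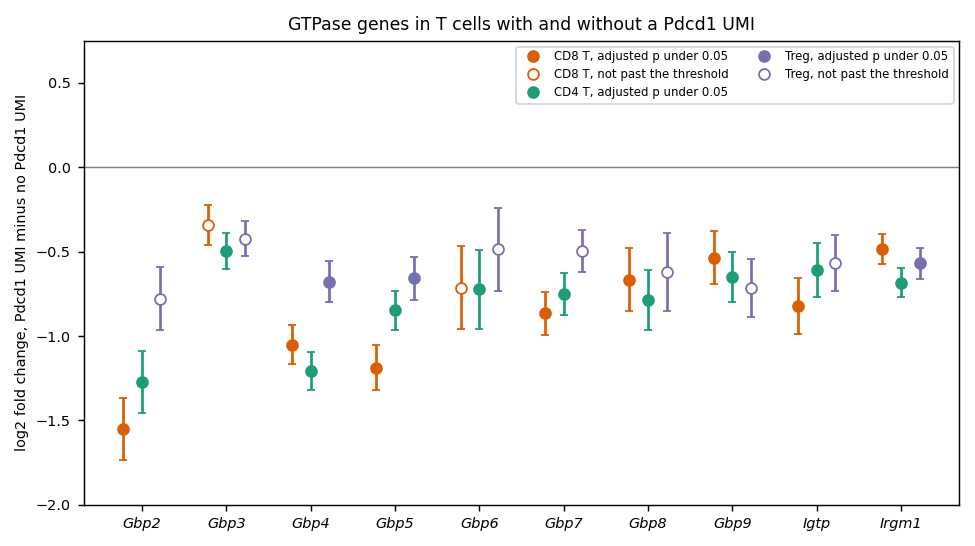
Points are log2 fold changes of the 10 GTPase genes between cells with and without a Pdcd1 UMI in CD8 T cells, CD4 T cells and Treg, with bars of 1 SE from the edgeR fit; filled points have an adjusted p under 0.05. All points lie below 0, from -1.55 for Gbp2 in CD8 T cells to -0.34 for Gbp3 in CD8 T cells.

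By library, the summed level of the 10 genes without Pdcd1 was 1.62-fold, 1.65-fold and 1.82-fold that with Pdcd1 in CD8 T cells of replicates 1, 2 and 3, and 1.78-fold, 1.39-fold and 1.37-fold in Treg. In CD4 T cells it was 1.10-fold in replicate 1 and 1.78-fold and 1.70-fold in replicates 2 and 3. All 10 genes were lower with Pdcd1 in replicates 2 and 3 of every class. In replicate 1 10 were lower in Treg, 9 in CD8 T cells, where Gbp3 was not, and 7 in CD4 T cells, where Gbp3, Gbp6 and Gbp8 were not. Cells with Pdcd1 were deeper, with a median of 8656 against 7309 UMIs in CD8 T cells and 11508 against 7518 in Treg of replicate 2. At an equal depth of 2000 UMIs any of the 10 genes was found in 52.4 ± 8.1% of CD8 T cells with Pdcd1 and 63.4 ± 12.6% of those without, in 57.0 ± 4.2% and 65.9 ± 12.2% of CD4 T cells and in 73.1 ± 10.2% and 78.4 ± 6.2% of Treg. The cells with Pdcd1 had the lower share in 3 of 3 libraries in CD8 T cells and Treg and in 2 of 3 in CD4 T cells, where replicate 1 had 52.2% against 51.9%. Without thinning, the mean shares were 83.6% with and 86.6% without Pdcd1 in CD8 T cells. They were 84.2% and 85.3% in CD4 T cells, but 95.1% and 92.8% in Treg. The B-cell gene Ms4a1 was found in 4.46%, 11.7% and 9.84% of thinned Treg with Pdcd1 and 5.65%, 7.34% and 5.38% of those without, and in 2.43%, 5.11% and 1.71% against 4.62%, 1.91% and 1.86% of CD8 T cells. The stricter setting that left out T cells with over 1 UMI of Cd79a or of C1qa plus C1qb kept 18 of the 21 called member values here. T cells with 1 Cd79a UMI stayed in. The part of B-cell RNA in the differences was not tested further.

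The size of the Pdcd1 difference itself was compared between classes. The difference between CD8 and CD4 T cells ranged over the 10 genes from -0.34 to 0.20 (log2, SE 0.12 to 0.33), and that between Treg and CD4 T cells from -0.07 to 0.53 (SE 0.12 to 0.34). None of 10 passed in the first (0.0186% of all genes) and none in the second (0.353%) by edgeR's quasi-likelihood test. At an unadjusted p under 0.05 there were 0 and 1, the latter being Gbp4 (0.53 ± 0.17 SE, adjusted p = 0.195), and DESeq2 called 0 in both. In the second, 3 were called without replicate 1 and 2 without the filter on low counts. Calls over all genes rose there from 38 to 396 and 393. By the edgeR fit the classes are therefore not shown to differ in the size of the Pdcd1 difference.

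Genes around the GTPases gave these counts with Pdcd1. Over all genes, 7.43% were called lower and 6.23% higher in CD8 T cells. In CD4 T cells the shares were 8.02% and 7.55%, and in Treg 0.409% and 0.102%. Of 6 tested further interferon-inducible GTPases, 5 were lower in CD8 T cells and 5 in CD4 T cells, led by Tgtp1 (-1.82 ± 0.21 and -1.78 ± 0.19 SE), and none was called in Treg. Of 14 genes of interferon-gamma signalling, 6 were lower and 1 higher in CD8 T cells and in CD4 T cells, and 2 were lower in Treg. The receptor chain Ifngr2 was lower in all 3 (-1.63 ± 0.11, -1.50 ± 0.09 and -0.50 ± 0.10), and its difference was smaller in Treg than in CD4 T cells (1.00 ± 0.14 SE for the difference of differences, adjusted p = 0.00411). Ifngr1 was lower in CD8 T cells (-0.49 ± 0.12) and CD4 T cells (-0.69 ± 0.12) and did not pass in Treg (-0.27, adjusted p = 0.475). Irf1 was lower in all 3 (-0.55 ± 0.13, -0.59 ± 0.13 and -0.62 ± 0.14). Ifng did not pass in any (0.26, 0.42 and 0.60). Of the 14 tested antigen presentation genes, 2 were lower in CD8 T cells (Cd274, which encodes the PD1 ligand, -0.76 ± 0.15, and Psme1, -0.24 ± 0.07) and none was called by edgeR in the other classes. Of 12 type I interferon response genes, 3 were lower and 1 higher in CD8 T cells, and 1 was lower in CD4 T cells and in Treg each. Of 8 inflammasome genes, 4 were higher in CD8 T cells, led by Casp1 (0.87 ± 0.20), and 1 in CD4 T cells.

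The number of Pdcd1 calls depended on the block and on the libraries kept. Without the library term 0, 0 and 0 of the 10 members passed in CD8 T cells, CD4 T cells and Treg. Without replicate 1 the counts were 10, 10 and 8, and without replicate 2 or without replicate 3 they were 4, 4 and 0, while no called value changed sign. Over all genes, 1471, 1677 and 55 were called in these classes by the main fit and 191, 181 and 1 without the library term. They were 1762, 2286 and 181 without replicate 1, 401, 403 and 1 without replicate 2, and 346, 325 and 1 without replicate 3. The members that passed whichever library was left out were Gbp2, Gbp4, Gbp5 and Gbp7 in CD8 T cells and Gbp2, Gbp4, Gbp5 and Irgm1 in CD4 T cells. In Treg, Gbp4, Gbp5 and Irgm1 lay between -0.73 and -0.51 without replicate 2 or 3, with adjusted p from 0.383 to 0.570. With the Pdcd1 state read after thinning to 1000 UMIs, 5, 6 and 0 passed, beside 689, 974 and 23 of all genes. The count in Treg was 8 under DESeq2, 9 without the filter on low counts and 1 with every cell thinned to 1000 UMIs. Over all genes, 103, 304 and 13 were called in Treg under these settings. Scaling by total UMIs moved the median of all genes to 0.17 in both CD8 and CD4 T cells and the share of calls that were higher from 45.6% to 80.1% and from 48.5% to 81.7%, with all 10 members below 0 in each class under TMM, total UMIs and DESeq2.

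Over the 15 sums, the genes whose log2(CPM + 1) level ran most like the summed GTPases were B2m (Pearson r = 0.95), the light chain of class I molecules, Irgm2 (0.92), a further regulator of the immunity-related GTPases, Tmbim6 (0.92), Irf9 (0.91), Chp1 (0.91), Usp18 (0.91), Dtx3l (0.90), Ifit1 (0.90), Xaf1 (0.89) and Ifi47 (0.89). Among the members themselves the 45 pairs had r from -0.04 (Gbp3 with Gbp9) to 0.90 (Gbp6 with Igtp), with a median of 0.56. The sums share libraries, depth and mice, so these values describe likeness over these 15 sums and carry no test.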

How the data were processed

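Sorted islet leukocytes of NOD mice gave 3 single-cell libraries of 1 group. The files hold raw UMI counts per gene and cell barcode, which the authors made and deposited after alignment to mm10 with Cell Ranger 6.0.1 (tool and build from the submitters' processing notes), with cell-associated barcodes only and libraries kept apart. As an alternative, cells were filtered as in the study, on gene number (200 to 5000), total UMIs (under 6000), the mitochondrial share (under 5%) and the ribosomal share (over 5%). Library totals were 33851381, 74775394 and 80806452 UMIs. The classes are rule-based, no doublet caller was run, and cells meeting 2 rules were left out. By the rules only CD8 T and Treg can overlap, so this step removed no droplets that mixed other classes.

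UMIs were summed per library and class (and Pdcd1 state) and fitted with edgeR 4.0.16 (quasi-likelihood, TMM, filterByExpr, library as block) in R 4.3.3, with DESeq2 1.42.0 as an alternative. Benjamini-Hochberg adjustment ran over all genes tested. SE is the log2 fold change divided by the square root of F. Sums needed at least 10 cells. Other alternatives were total-UMI scaling, no filter, no block, each replicate left out, thinning to 1000 UMIs, and leaving out cells with RNA of another lineage. The last of these dropped T cells with over 1 UMI of Cd79a or of C1qa plus C1qb. It dropped B cells with over 1 UMI of C1qa plus C1qb and set no further limit on macrophages. Thinning and shares used Python 3.11.15 and numpy 2.4.6. Same-library sums came from the same mice, so the library was kept as a block. Their deviations from class means correlated at 0.04 to 0.74 (mean 0.33, 30 pairs) within libraries and -0.64 to 0.42 (mean -0.15, 60 pairs) between them, and at 0.29 to 0.71 and -0.60 to 0.39 for the Pdcd1 sums. Deviations from a mean of 3 libraries cancel out, which pulls the between-library values down. The between-library values therefore add nothing to those within libraries. P-values rest on 1 estimate of spread per gene, shared by all classes of the 3 libraries of pooled mice. The block first takes out shifts that a library's sums share. Macrophages are thus taken to vary like the lymphocytes. Between replicates 2 and 3, the members' median absolute log2 gap was 0.49 in macrophages and 0.03 to 0.15 in the lymphocyte classes. The shared spread may be partly technical.

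The fit was tested on simulated data: of 200 genes changed between CD8 and CD4 T cells among 12099, 98% were found at a log2 change of 1 and 100% at 2, with 6 false calls. For the Pdcd1 split of CD8 T cells, among 10768 genes, the shares were 98% and 100% with 7 false calls. The simulated sums had the same mean profile in all groups, a library effect common to the groups and a fixed dispersion. Changed genes were drawn only from those with more UMIs. These shares therefore do not apply to genes with few UMIs or to differences that vary between libraries.

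The members and all gene lists were chosen with earlier results of these data known. Named genes were the 10 members, the 10 genes most like their sum, and from each list of other genes up to 3 called genes with the largest change, besides Ifng, Ifngr1, Ifngr2 and Irf1. A further gene of this rule is not reported here.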

Additional observations from a re-analysis of the deposited data

Results flagged for a closer look

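Cells outside the 5 classes, which no comparison used, also held the GTPases. Summed over the 10 genes they had 521, 1308 and 1223 CPM in replicates 1, 2 and 3, a mean of 1018 CPM, from 5541, 32624 and 37233 UMIs. The result was set apart because a signal appeared in cells that the comparisons left out. As in the lymphocyte classes, replicate 1 was the lowest of the 3 libraries. These cells had T-cell markers at a summed 1653 to 1907 CPM and endocrine genes at 322 to 1500 CPM, so that they are a mixture, and which of them held the GTPases was not tested.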

How the results depend on the processing

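Called differences of members kept direction and side of the threshold in 51 of 53 values between classes under DESeq2, 52 under total-UMI scaling, 53 without the filter on low counts, 53 with cells of 2 rules kept, 51 without cells holding RNA of another lineage, 45 under the study's cell filter (32 of 33 among lymphocytes, and 13 of 20 with macrophages, which had 1 sum left there and so no replication of their own), 41 after thinning to 1000 UMIs and 27 without the replicate block. For the Pdcd1 split the counts of 21 were 19, 17, 21, not run, 18, 16, 14 and 0 in that order, and 11 with Pdcd1 read after thinning. No called value changed sign in these settings but Igtp in macrophages against B cells, at -0.51 after thinning to 1000 UMIs (edgeR adjusted p = 0.65). The cause was not tested.

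Without the replicate block, which pairs the sums of 1 library, members past the threshold numbered 4 in macrophages against B cells, 2 against CD8 T cells, 2 against CD4 T cells and 1 against Treg, 5 and 4 in B cells against CD8 and CD4 T cells, 0 between CD8 and CD4 T cells, 1 between CD4 T cells and Treg, and 0, 0 and 0 in the Pdcd1 split of CD8 T cells, CD4 T cells and Treg. Thinning to 1000 UMIs gave 2 in macrophages against B cells, 3 against CD4 T cells and 1 in the Pdcd1 split of Treg. The study's cell filter gave 3 in macrophages against CD4 T cells and 5 in CD8 T cells against Treg, the former with macrophages of replicate 1 as the one sum, assumed to vary like the other classes. Total UMIs gave 6 in CD8 T cells against Treg. Without the filter on low counts there were 2 between CD8 and CD4 T cells, 9 in the Pdcd1 split of Treg and 2 in its difference from CD4 T cells, and DESeq2 gave 8 in the Pdcd1 split of Treg. With Pdcd1 read after thinning, 5, 6 and 0 passed.

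With each replicate left out in turn, the members past the threshold ranged from 0 to 4 between CD8 and CD4 T cells, from 4 to 10 in the Pdcd1 split of CD8 T cells and of CD4 T cells, from 0 to 8 in that of Treg and from 0 to 3 in the difference between Treg and CD4 T cells. Each upper end came without replicate 1, and macrophages against B cells ranged from 6 to 7. Kept calls were 50, 46 and 44 of 53 between classes and 21, 8 and 8 of 21 for Pdcd1 without replicates 1, 2 and 3.

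Any of the 10 genes was found in 56.7% of macrophages, 24.6% of B cells, 43.0% of CD8 T cells, 44.0% of CD4 T cells and 57.0% of Treg after thinning to 1000 UMIs, and in 90.9%, 63.7%, 85.4%, 84.9% and 93.9% without thinning. At least 2 were found in 39.5% of macrophages, 17.9% of CD8 T cells, 17.4% of CD4 T cells and 26.1% of Treg at 1000 UMIs, and in 79.4%, 65.9%, 62.7% and 81.7% without thinning, where B cells had 37.5%.

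Counts over all genes were 698 to 6245 between classes and 55 to 1677 in the Pdcd1 split. They moved by over 1.5 times in 9 of 10 class comparisons at 1000 UMIs (486 to 3644 genes), in 6 without the block (105 to 4147), in 5 under the study's filter (721 to 5130), in 5 without replicate 2 (124 to 4272), in 7 without replicate 3 (152 to 4088), in 1 without replicate 1 (1131 to 6688) and in 1 without the filter on low counts (1164 to 6657). In the Pdcd1 split they were 1 to 191 without the block, 13 to 858 at 1000 UMIs, 23 to 974 with Pdcd1 read after thinning, 27 to 1189 under the study's filter, 103 to 1408 under DESeq2, 304 to 1890 without the filter on low counts, and 181 to 2286, 1 to 403 and 1 to 346 without replicates 1, 2 and 3. The 2 differences of Pdcd1 differences had 2 and 38 genes, 17 to 123 under DESeq2, 16 to 80 at 1000 UMIs, 184 to 393 without the filter on low counts, 107 to 396 without replicate 1, 12 to 49 under the study's filter, 1 to 53 with total UMIs, 0 to 1 without the block, without replicate 2 or with Pdcd1 read after thinning, and 0 without replicate 3. Macrophages, at 10 to 31 cells a library, limit every value that rests on them.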

Other observations

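Genes that work beside the GTPases in the inflammasome did not share the low values of replicate 1. Over 8 such genes the median difference of replicate 1 from the mean of replicates 2 and 3, on the log2(CPM + 1) scale, was 0.93 in CD8 T cells, 0.82 in CD4 T cells, 0.34 in B cells and 0.34 in Treg, and 7 of 8 were highest in replicate 1 in CD8 T cells and 8 of 8 in CD4 T cells. Ifngr1 was lower in replicate 1 in CD8 T cells (554, 927 and 988 CPM in replicates 1, 2 and 3) and CD4 T cells (472, 723 and 805 CPM) and higher in B cells (150, 121 and 118 CPM). These are values of single libraries with no test.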
